A study of Homo sapiens and Mus musculus with 10 samples.

Results

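A375 is an established human melanoma cell line that carries an activating BRAF mutation, and the comparison described here asked how its RNA changed when the peptide LL-37 was added to the culture. The members were the A375 libraries of the series, chosen by their labels: 6 of the 10 libraries, 3 from cells left without peptide (Ctrl, at 0 µg/mL) and 3 from cells given LL-37 at 80 µg/mL, each after 24 h. The other 4 libraries were from mouse and were not analysed here. The series text calls the cultures biological triplicates. All cells carried the same genotype, no transgene or deletion was named, and every library stands for 1 cell line. RNA was made into stranded poly(A) libraries, and levels were deposited as TPM, transcripts per 1000000, a scale that corrects for transcript length and adds up to the same total in each library. Sequencing depth is therefore unknown, and no counting error can be given for a level.

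LL-37 is the active peptide released from the C-terminal end of the cathelicidin precursor, which the gene CAMP encodes. It is a short, positively charged, amphipathic helix that inserts into negatively charged membranes, kills bacteria in this way, and can damage or permeate host cell membranes where it is concentrated. In skin it is known as a signal as well: keratinocytes and neutrophils release it on injury, it activates surface receptors and growth factor signalling, and it is known to raise chemokine output in epithelial cells.

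The RNA carried the marks of a melanoma line with little pigment. SOX10, the transcription factor of the neural crest and melanocyte lineage, was at 287, 266 and 296 TPM in untreated cells and at 387, 343 and 147 TPM with LL-37. MITF, the master regulator of pigment cells, was at 5.45, 4.57 and 5.23 TPM in Ctrl and 4.4, 4.35 and 1.75 TPM in LL-37 libraries. The pigment enzymes and melanosome proteins TYR, TYRP1, DCT, PMEL and MLANA did not reach the level needed for testing. The extraction protocol in the labels speaks of keratinocytes. Of the 13 keratinocyte markers found in the table, 3 passed the filter on low values (KRT10, KRT14 and DSC3), at summed levels over the list of 29.8 to 30.9 TPM in Ctrl and 22.1 to 27.6 TPM in LL-37 libraries. KRT10 and DSC3 were lower in every LL-37 library, at 25.1, 26.1 and 25.7 TPM without and 20.2, 18.4 and 24.6 TPM with LL-37 for KRT10 and 2.35, 2.2 and 2.18 and 1.94, 1.75 and 0.92 TPM for DSC3. KRT1, KRT6A, TP63, DSG3 and LORICRIN were listed at 0 TPM in all 6 libraries. The defining fibroblast genes COL1A1, COL1A2 and COL3A1, the leukocyte gene PTPRC and the endothelial genes PECAM1 and CDH5 stayed below 1 TPM in all 6 libraries. Of the markers listed, 4 of 10 for fibroblasts, 2 of 9 for leukocytes and 1 of 6 for endothelium passed the filter. Their summed levels were 8.16 to 9.8 TPM in Ctrl and 4.24 to 8.56 TPM in LL-37 libraries, 36.1 to 43.1 TPM in Ctrl and 22.8 to 41.7 TPM in LL-37 libraries and 2.09 to 2.64 TPM in Ctrl and 0.97 to 3.4 TPM in LL-37 libraries, in this order. CD68, a lysosomal protein that many cells express, made up most of the leukocyte sum. The endothelial marker that passed, KDR, was at 1.76, 1.46 and 1.76 TPM without and 2.82, 2.29 and 0.8 TPM with LL-37, above the Ctrl range in replicates 1 and 2 and below it in replicate 3. The part of these markers in the results below was not tested.

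One library stood apart before any comparison. In LL-37 replicate 3, 12991 genes reached 1 TPM, against 14304 to 14555 in the other 5, and its 50 most abundant genes took 39.8% of the total against 29.8% to 31.1%. Long transcripts were depleted in it. Relative to the Ctrl mean, its median gene was at -0.13 (log2) for the quartile of genes with the shortest transcripts, then at -0.47, -0.77 and -1.04 for quartiles of rising length, while every other library stayed between -0.10 and 0.06. The share of mitochondrially encoded RNA was 3.77%, 3.47% and 3.55% in the Ctrl libraries, 4.38% and 4.09% in LL-37 replicates 1 and 2, and 1.84% in LL-37 replicate 3. Results are therefore given for all 6 libraries and again without LL-37 replicate 3. Where the value of that library is set against genes of like transcript length, each library's length trend has been taken out. On that scale 0 stands for the Ctrl level. Length is that of the longest annotated transcript of a gene, which need not be the one these cells express, so such values are approximate. The cause of the depletion was not tested.

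**Figure D1:**
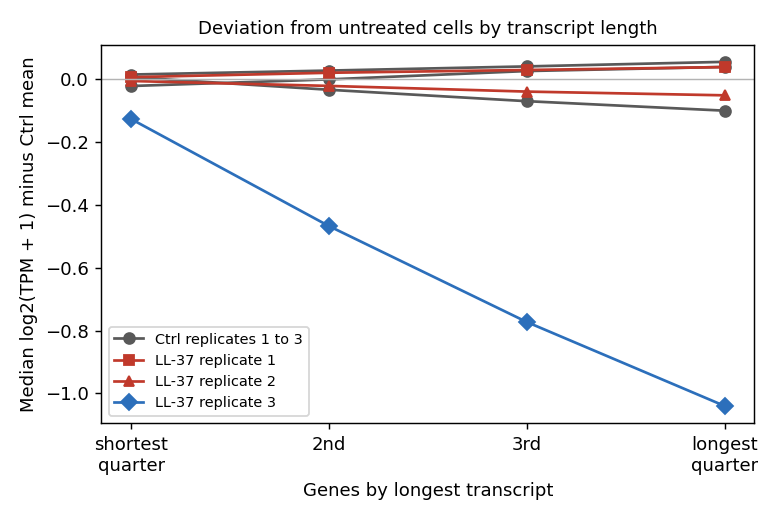
Median difference in log2(TPM + 1) between each library and the Ctrl mean (y axis), for genes split into quartiles by the length of their longest transcript (x axis), with 1 line per library. LL-37 replicate 3 falls from -0.13 to -1.04 as transcripts get longer, and the other 5 libraries stay within 0.10 of 0.

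The 14399 genes that reached 1 TPM in 3 or more of the 6 libraries were tested as log2(TPM + 1), a scale on which a change at a low level comes out too small. Log2 changes below are LL-37 minus Ctrl on that scale, with a standard error (SE), and the threshold was an adjusted p under 0.05. With all 6 libraries, no gene passed (0% of those tested; limma, smallest adjusted p = 0.197, for the long intergenic RNA ENSG00000276984), while 363 genes were under 0.05 before adjustment. With LL-37 replicate 3 left out, 17 genes passed (0.118%), 7 higher (0.0486%) and 10 lower (0.0694%) with LL-37, while 1298 genes were under 0.05 before adjustment. Among the 7 is ENSG00000276984, which reached 1 TPM in LL-37 libraries only. It could pass the filter only by being higher there, so nothing is drawn from its p in either fit. Leaving out 1 more library gave 42 genes without Ctrl replicate 1, 11 without Ctrl replicate 2, 9 without Ctrl replicate 3, and 19 and 20 without LL-37 replicates 1 and 2. Median-of-ratios scaling and quantile normalization each gave 9 genes, 5 higher and 4 lower. Below, rose and fell are written only of these 17 genes, for the fit without LL-37 replicate 3. In bulk RNA, fewer cells of a type and less RNA per cell cannot be told apart. A second description needs no model: whether the levels of the groups overlap. Over the 6 libraries, all 3 LL-37 levels lay above all 3 Ctrl levels for 306 genes (2.13%) and below them for 1485 genes (10.3%), and without LL-37 replicate 3 the counts were 1764 (12.3%) and 1853 (12.9%). The median log2 change over all genes was -0.20 with all libraries and 0.00 without that library, and median-of-ratios scaling brings the first to 0.00.

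**Figure D2:**
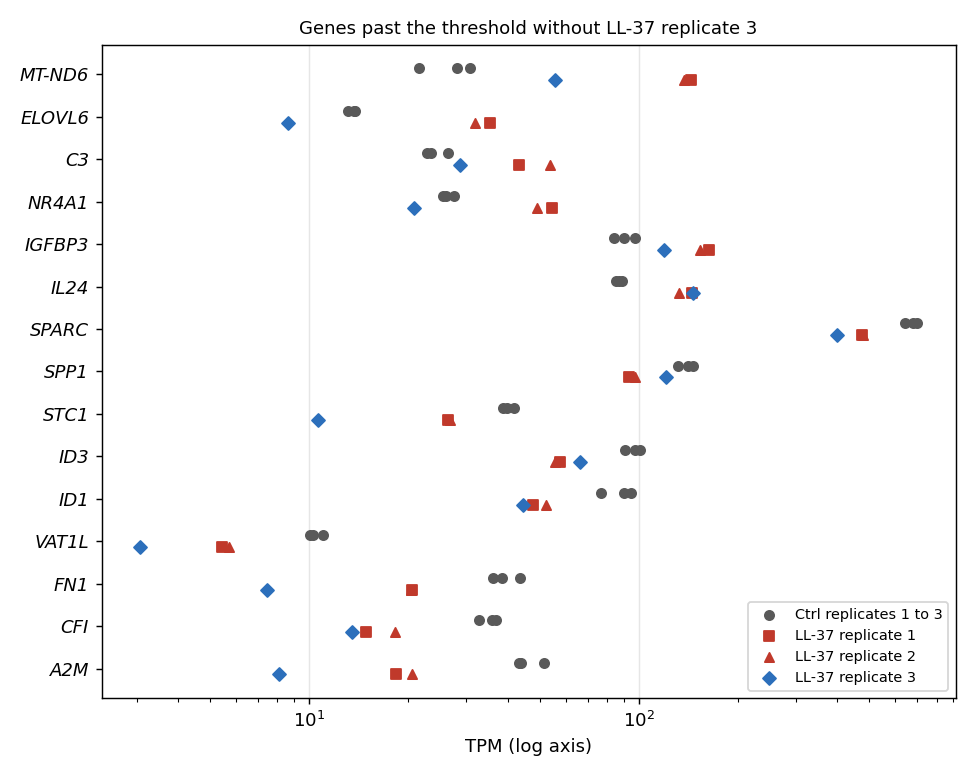
Level of 15 genes (TPM, log axis) in each of the 6 libraries, for the genes that passed the threshold without LL-37 replicate 3 and were above 0 in every library. Grey circles are the 3 Ctrl replicates and coloured symbols the LL-37 replicates. LL-37 replicate 3 (blue) lies on the same side of the Ctrl levels as the other LL-37 replicates for all of these genes except ELOVL6 and NR4A1.

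Several secreted messengers of inflammation were higher with LL-37, IL24 and neutrophil chemokines among them. IL24, a cytokine of the interleukin-10 family first known as a gene of melanoma differentiation, was at 86.9, 85.5 and 89 TPM in untreated cells and at 145, 132 and 146 TPM in LL-37 replicates 1 to 3. The Ctrl levels lay close together, and all 3 LL-37 libraries were higher by a similar amount. IL24 rose by 0.66 ± 0.07 (log2, SE; limma, adjusted p = 0.012) without LL-37 replicate 3, and the estimate was 0.69 ± 0.10 with it (adjusted p = 0.739). IL24 lies on chromosome 1 at 206897443 to 206904139 (GRCh38, GENCODE 29).

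The neutrophil chemokines of the CXCL cluster on chromosome 4 were higher too. CXCL1, which recruits neutrophils through CXCR2, was at 13.1, 13.5 and 12.8 TPM without and at 20.1, 19.4 and 21 TPM with LL-37. Its relative CXCL2 was at 2.07, 2.32 and 2.7 TPM without and 5.56, 4.78 and 3.78 TPM with LL-37, and CXCL3 was at 4.12, 3.6 and 4.17 TPM in Ctrl and 6.88, 7.01 and 7.02 TPM in LL-37 libraries. For all 3 genes the LL-37 levels lay above every Ctrl level. CXCL8, or interleukin 8, was at 19.8, 18.5 and 14.2 TPM without and 24.7, 24.9 and 35 TPM with LL-37, with the highest level in LL-37 replicate 3. Without that library, the log2 changes were 0.55 ± 0.09 for CXCL1, 0.88 ± 0.14 for CXCL2, 0.68 ± 0.12 for CXCL3 and 0.49 ± 0.14 for CXCL8, and none of them passed the threshold (limma, adjusted p = 0.0792, 0.0911, 0.0911 and 0.277). CXCL1, CXCL2 and CXCL3 are close copies of each other, so that reads may have been split between them.

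IL1A, the alarm cytokine that damaged cells release, was at 20.9, 21.7 and 20.1 TPM in untreated cells and 28.7, 29.7 and 31.6 TPM with LL-37. CCL2, a monocyte chemokine, was at 4.54, 5.13 and 3.58 TPM in Ctrl and 7.47, 5.54 and 5.69 TPM in LL-37 libraries. These groups were apart as well. LIF, a cytokine of the interleukin-6 family, was at 13.6, 12.6 and 15.5 TPM without and 21.2, 20.4 and 8.8 TPM with LL-37, above the Ctrl range in LL-37 replicates 1 and 2 and below it in replicate 3. Of the 26 chemokine and interleukin genes listed, 13 were measured, and 7 of these 13 were higher in all 3 LL-37 libraries than in any Ctrl library (2.13% of all genes tested), while none was lower throughout. Over the 5 other libraries, 10 of the 13 were higher (12.3% of all genes tested) and none lower. The median log2 change of the list lay 0.62 above that of all genes with 6 libraries and 0.47 above it without LL-37 replicate 3. By library it lay 0.46, 0.52 and 0.90 above in LL-37 replicates 1 to 3. The list has short transcripts, with a median of 1705 bases against 3359 over all genes. Short transcripts were the least depleted in LL-37 replicate 3, and these medians are not corrected for length. Of the 13, 1 gene, IL24, passed the threshold. The 13 genes not measured included IL6, TNF, CSF2, CSF3, CCL5, CCL20 and the interferon-driven chemokines CXCL10 and CXCL11. Other inflammation lists differed from this 1. Of 19 measured interferon-stimulated genes, 0 were higher and 3 lower in all LL-37 libraries (2.13% and 10.3% of all genes). The counts were 0 and 1 of 15 for MHC class I presentation. For ligands of immune checkpoints and natural killer cells they were 1 and 0 of 12.

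The promoters of these chemokines hold binding motifs of the inflammatory transcription factors, which is why a stretch of each is shown. The windows come from RefSeq promoters (GRCh38.p14; 250 bases before to 50 after each start), are written 5′ to 3′ on the gene's strand, and carry the motif in capitals. The motif for CXCL1, CXCL2, CXCL3 and NFKB1 is a kappa-B site, searched as GGG, any 2 bases and TTTCC, the binding letters of NF-kB dimers; for CXCL8 it is TGANTCA, the binding letters of the AP-1 dimers of FOS and JUN proteins.
CXCL1: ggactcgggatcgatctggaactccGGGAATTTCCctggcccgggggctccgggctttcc
CXCL2: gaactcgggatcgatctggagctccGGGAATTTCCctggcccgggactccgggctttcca
CXCL3: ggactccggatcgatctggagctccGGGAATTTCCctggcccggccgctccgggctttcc
NFKB1: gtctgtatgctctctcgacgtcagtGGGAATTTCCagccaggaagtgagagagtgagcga
CXCL8: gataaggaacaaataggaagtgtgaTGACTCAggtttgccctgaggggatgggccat
The windows lie at chr4:73869289-73869348 (CXCL1, plus strand), chr4:74099239-74099298 (CXCL2, minus strand), chr4:74038734-74038793 (CXCL3, minus strand), chr4:102501285-102501344 (NFKB1, plus strand) and chr4:73740407-73740463 (CXCL8, plus strand). The kappa-B letters start 79 bases before the annotated start in CXCL1, 78 in CXCL2 and 79 in CXCL3. Over the first 35 bases of the windows, motif included, each pair of the 3 chemokines is equal at 33. Of the 13 measured chemokine and interleukin genes, 8 had a promoter in the table. A gene was counted when any of its promoters held the letters. The kappa-B letters were found on either strand in 3 of them, and in 2.75% of the 10492 tested genes with a promoter (1.91% of all 35116 promoters). The AP-1 letters, which have the same form on both strands, were found in CXCL8, IL1A and IL11. They were found in 7.04% of the tested genes with a promoter (7.71% of all promoters). A match describes the letters and not a bound site. Sites that depart from the searched letters are not counted, so a gene without a match, such as CXCL8 for kappa-B, may still hold one.

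The feedback genes of NF-kB were less uniform. NF-kB is a family of dimers held in the cytoplasm by inhibitors such as NFKBIA, and its own subunits and inhibitors are among its target genes. NFKB1, the p105/p50 subunit, was at 55.7, 54.3 and 55.1 TPM without and 82.4, 71.7 and 60.3 TPM with LL-37, apart in all 6 libraries. BIRC3, a ubiquitin ligase of the TNF receptor complex, was at 2.64, 2.68 and 2.08 TPM in Ctrl and 5.41, 4.47 and 3.05 TPM in LL-37 libraries, also apart. NFKB2 was at 53.6, 46 and 45.6 TPM without and 71.9, 74.9 and 36.9 TPM with LL-37, so that replicates 1 and 2 stood above the Ctrl range and replicate 3 below it. RELA, a subunit with an activation domain, was at 54.3, 56.2 and 60.6 TPM in Ctrl and 62.2, 56 and 27.7 TPM in LL-37 libraries and overlapped. Of 15 measured members, 2 were higher in all 3 LL-37 libraries (2.13% of all genes) and none lower. Without LL-37 replicate 3, 10 of the 15 were higher (12.3% of all genes), 5 had an unadjusted p under 0.05 (4.92% of all genes tested are higher at that level, and 4.1% lower), and none passed the adjusted threshold (limma, lowest adjusted p = 0.0749, for NFKB2). The kappa-B letters were found in 10 of the 13 members that had a promoter in the table, and in 2.75% of tested genes with a promoter.

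**Figure D3:**
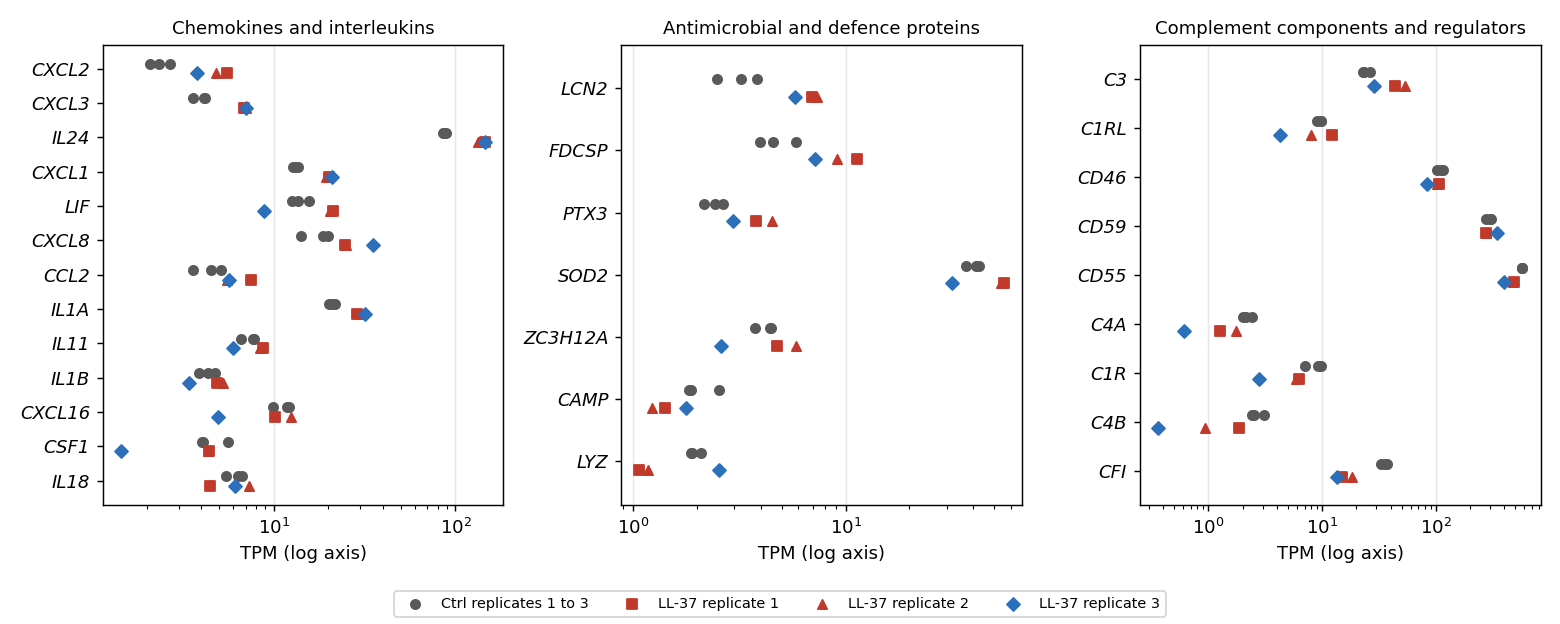
Levels (TPM, log axis) of the measured chemokine and interleukin genes (left), antimicrobial and defence genes (middle) and complement genes (right) in each library. PI3, which was at 0 in 1 Ctrl library, is left out. IL24, CXCL1, CXCL3, CXCL8, IL1A and LCN2 stand to the right of all Ctrl points in every LL-37 library, CFI and CD55 to the left.

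Host defence proteins were few in these cells but several were higher. LCN2, or lipocalin 2, which starves bacteria of iron by binding their siderophores, was at 2.47, 3.21 and 3.84 TPM in untreated cells and 6.97, 7.35 and 5.75 TPM with LL-37. FDCSP, a small secreted peptide of follicular dendritic cells and periodontal tissue, was at 4.57, 3.97 and 5.83 TPM without and 11.4, 9.12 and 7.15 TPM with LL-37. PTX3, a soluble pattern recognition protein, was at 2.43, 2.65 and 2.15 TPM in Ctrl and 3.8, 4.5 and 2.95 TPM in LL-37 libraries. All 3 groups were apart, with log2 changes of 0.98, 0.96 and 0.59 without LL-37 replicate 3 and 0.89, 0.81 and 0.47 with it, none past the threshold. SOD2, the mitochondrial superoxide dismutase that inflammatory signals raise, was at 41.2, 36.8 and 42.7 TPM without and 55.6, 53.8 and 31.6 TPM with LL-37, higher in replicates 1 and 2 only. Among the 8 measured genes of the list, 3 were higher in all LL-37 libraries and 1, CAMP, was lower (2.13% and 10.3% of all genes). Leaving out replicate 3, the counts were 5 higher and 2 lower (12.3% and 12.9%). CAMP, the gene of the peptide itself, was at 1.88, 1.83 and 2.53 TPM in untreated cells and at 1.41, 1.23 and 1.77 TPM with LL-37, with a log2 change of -0.40 ± 0.16 (limma, adjusted p = 0.521) without LL-37 replicate 3. Peptide added to the medium brings no RNA, so this level describes the cells' own precursor, which was near the lower limit of measurement.

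Complement genes split. C3, the central component whose cleavage tags surfaces and releases an anaphylatoxin, was at 23.4, 22.8 and 26.4 TPM in untreated cells and at 43.4, 53.6 and 28.7 TPM with LL-37. CFI, the protease that inactivates C3b, was at 32.8, 36.9 and 35.8 TPM in Ctrl and 14.9, 18.2 and 13.5 TPM in LL-37 libraries. Both groups were apart in all libraries, in opposite directions. With LL-37 replicate 3 left out, C3 rose by 0.97 ± 0.11 (adjusted p = 0.0233) and CFI was lower by a log2 change of -1.05 ± 0.10 (adjusted p = 0.012); with all libraries the estimates were 0.73 ± 0.24 and -1.14 ± 0.16 (limma, adjusted p = 0.739 for each). CD55, which breaks up the C3 convertase on the cell surface, was at 574, 572 and 566 TPM without and 484, 471 and 399.98 TPM with LL-37, below the Ctrl range throughout, and its partners CD46 and CD59 overlapped. C1R, C4A and C4B, which start the classical pathway, were lower in every LL-37 library too, at no more than 10 TPM. C4A and C4B are near-identical copies, so their levels are uncertain. Against genes of like transcript length, LL-37 replicate 3 stood at 1.11 for C3, -0.94 for CFI and -0.70 for C1R. For CD55 it stood at -0.0007, so that its deviation there was near that of other genes of like length. In all, 1 of 9 measured members was higher and 5 were lower throughout (2.13% and 10.3% of all genes). C3 lies on chromosome 19 at 6677704 to 6730562 and CFI on chromosome 4 at 109740694 to 109802179.

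Receptors that have been reported to sense LL-37 were mostly at 0 or overlapped between the groups. FPR1, FPR2 and MRGPRX2, the formyl peptide and mast cell receptors, were listed at 0 TPM in all 6 libraries, and CXCR2 and TLR9 stayed under 1 TPM. Of 9 measured members, none was higher in all LL-37 libraries and 2, TLR3 and P2RX7, were lower (10.3% of all genes). Leaving out replicate 3, 3 were higher and 2 lower (12.3% and 12.9%), and the median of the list lay -0.16 from that of all genes with 6 libraries and 0.10 without it. TLR3, the endosomal sensor of double-stranded RNA, was at 3.64, 3.6 and 4.23 TPM in Ctrl and 2.71, 3.05 and 1.09 TPM in LL-37 libraries, and P2RX7, an ATP-gated channel, at 1.26, 1.26 and 1.58 TPM without and 1.25, 0.86 and 0.37 TPM with LL-37. EGFR was at 1.16, 1.08 and 1.27 TPM in Ctrl and 1.3, 1.2 and 0.36 TPM in LL-37 libraries, so that this receptor was close to the limit of measurement in both groups. Of its ligands, AREG (amphiregulin) was at 4.95, 3.67 and 4.33 TPM without and 6.63, 5.85 and 5.8 TPM with LL-37, apart in all libraries, with a log2 change of 0.45 ± 0.14 without LL-37 replicate 3 that did not pass (limma, adjusted p = 0.348). TGFA, the ligand with the highest level, was at 146, 141 and 149 TPM in Ctrl and 142, 138 and 84 TPM in LL-37 libraries.

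Among the immediate early genes, which growth factor and stress signals switch on within minutes, NR4A1 stood out. NR4A1, an orphan nuclear receptor (chromosome 12, 52022832 to 52059507), was at 27.6, 25.6 and 26 TPM in untreated cells and at 54.7, 49 and 20.8 TPM in LL-37 replicates 1 to 3. Replicates 1 and 2 lay well above the Ctrl range, and replicate 3 below it. NR4A1 rose by 0.95 ± 0.08 (adjusted p = 0.00726) without LL-37 replicate 3, and the estimate with it was 0.52 ± 0.35 (limma, adjusted p = 0.739). Set against genes of like transcript length, LL-37 replicate 3 stood 0.50 above the Ctrl level. Its relative NR4A2 was at 24.3, 20.4 and 23.3 TPM without and 25.5, 21.1 and 7.9 TPM with LL-37. FOSL1, the AP-1 subunit FRA1, was at 90.4, 80.8 and 84.5 TPM in Ctrl and 126, 104 and 55.7 TPM in LL-37 libraries, and ATF3 at 6.6, 5.52 and 4.96 TPM without and 7.92, 7.21 and 13.1 TPM with LL-37, the only 1 of 18 measured members whose groups were apart over all libraries (2.13% of all genes are higher in this way). FOS, JUN, JUNB, JUND and EGR1 overlapped with and without LL-37 replicate 3. Without that library, 8 of 18 members were higher and none lower (12.3% and 12.9% of all genes).

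The targets of bone morphogenetic protein signalling included 2 of the genes that fell. ID1, ID2 and ID3 code for inhibitors of DNA binding, which pair with E proteins such as TCF3 and TCF4 and keep them off DNA, and which SMAD1 and SMAD5 switch on. ID1 was at 76.7, 90.2 and 94.4 TPM in untreated cells and 47.9, 52.2 and 44.4 TPM with LL-37. ID3 was at 90.5, 97.3 and 101 TPM in Ctrl and 57.6, 55.8 and 66.3 TPM in LL-37 libraries, and ID2 at 6.12, 7.35 and 6.67 TPM without and 3.66, 3 and 2.77 TPM with LL-37. Every LL-37 level lay below every Ctrl level for the 3 genes, replicate 3 included. Over the 5 other libraries, ID1 had a log2 change of -0.78 ± 0.10 (adjusted p = 0.0378) and ID3 of -0.75 ± 0.07 (adjusted p = 0.0111), while ID2, at -0.83 ± 0.13, did not pass (limma, adjusted p = 0.0846). With all libraries the estimates were -0.84, -0.68 and -0.90. These transcripts are short, and LL-37 replicate 3 stood at -0.83, -0.41 and -0.74 against genes of like length. The inhibitory SMAD genes SMAD6 and SMAD7 were at 1.69, 1.62 and 1.47 TPM in Ctrl and 1.31, 1.23 and 0.42 TPM in LL-37 libraries and at 3.26, 3.32 and 3.3 TPM without and 3.37, 3.66 and 1.02 TPM with LL-37, and BAMBI, a decoy receptor, was at 16, 17.3 and 17 TPM in Ctrl and 22.1, 19.9 and 16.2 TPM in LL-37 libraries. Of 10 measured members, 5 were lower in all LL-37 libraries and none higher (10.3% and 2.13% of all genes). Without LL-37 replicate 3 the counts were 5 lower and 3 higher (12.9% and 12.3%). The ligand BMP4 overlapped. ID1 lies on chromosome 20 at 31605283 to 31606515 and ID3 on chromosome 1 at 23557918 to 23559794.

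Among the binding proteins of insulin-like growth factors, 1 member passed the threshold. IGFBP3, which binds insulin-like growth factors and limits their access to the receptor (chromosome 7, 45912245 to 45921874), was at 97.2, 84.1 and 89.99 TPM in untreated cells and 163, 153 and 119.6 TPM with LL-37. It rose by 0.80 ± 0.08 (limma, adjusted p = 0.0111) without LL-37 replicate 3, and all 3 LL-37 levels lay above the Ctrl range. IGFBP5 was at 14.6, 14.2 and 16.9 TPM without and 8.51, 9.93 and 2.21 TPM with LL-37 and IGFBP2 at 49.6, 59.9 and 55.9 TPM in Ctrl and 40.8, 48.3 and 34.5 TPM in LL-37 libraries, both below the Ctrl range throughout. Against genes of like transcript length, LL-37 replicate 3 stood at -1.38 for IGFBP5 but at 0.12 for IGFBP2. Of 6 measured members, 1 was higher and 3 were lower throughout (2.13% and 10.3% of all genes), and IGFBP3 alone passed.

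Several secreted proteins of the extracellular matrix fell. A2M, alpha-2-macroglobulin, a secreted trap of proteases (chromosome 12, 9067664 to 9116229), was at 43.4, 43.9 and 51.5 TPM without and 18.3, 20.5 and 8.1 TPM with LL-37. FN1, fibronectin, the adhesive fibre that integrins grip (chromosome 2, 215360440 to 215436172), was at 38.6, 36.2 and 43.7 TPM without and 20.5, 20.4 and 7.44 TPM with LL-37. Both lay far below the Ctrl range in every LL-37 library. SPARC, a collagen-binding protein that loosens cell adhesion (chromosome 5, 151661096 to 151687165), was at 642, 696 and 680.4 TPM in Ctrl and 476, 478 and 399.6 TPM in LL-37 libraries. SPP1, osteopontin, a ligand of integrins and CD44 (chromosome 4, 87975650 to 87983426), was at 132, 146 and 141 TPM without and 93.2, 97.2 and 121 TPM with LL-37. These 4 genes passed the threshold without LL-37 replicate 3, with log2 changes of -1.21 ± 0.10, -0.91 ± 0.09, -0.49 ± 0.05 and -0.54 ± 0.07 (limma, adjusted p = 0.00651, 0.0136, 0.0216 and 0.0378). With all libraries the estimates were -1.60, -1.36, -0.58 and -0.43, none past the threshold. FN1 and A2M have long transcripts. Against genes of like length, LL-37 replicate 3 stood at -1.54 for A2M and -1.17 for FN1, and at -0.07 for SPARC and -0.01 for SPP1, so that its deviation in SPARC and SPP1 was near that of other genes of their length.

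TGFBI, a matrix protein that transforming growth factor beta raises, was at 81.6, 97.4 and 105 TPM in Ctrl and 57, 68.3 and 38.7 TPM in LL-37 libraries, and BGN, the proteoglycan biglycan, at 32.4, 31.6 and 33.2 TPM without and 24.7, 22.7 and 10.8 TPM with LL-37. Both were apart and neither passed. TNC, tenascin C, the matrix glycoprotein of the list with the second highest level, was at 244, 223 and 247 TPM in Ctrl and 246, 242 and 69.8 TPM in LL-37 libraries, within the Ctrl range in replicates 1 and 2 and far below it in replicate 3. Of 17 measured matrix glycoproteins, 8 were lower in LL-37 libraries, whether replicate 3 was counted or not (10.3% and 12.9% of all genes). None was higher throughout (2.13% of all genes). Without that library, 8 were lower at an unadjusted p under 0.05 (4.1% of all genes). The median of the list lay -0.31 from that of all genes with 6 libraries and -0.16 without LL-37 replicate 3.

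STC1, stanniocalcin, a secreted glycoprotein hormone on chromosome 8, was at 38.8, 39.8 and 41.9 TPM without and 26.4, 26.7 and 10.6 TPM with LL-37, and VAT1L, a homologue of a synaptic vesicle membrane protein (chromosome 16, 77788530 to 77980107), at 11, 10.1 and 10.3 TPM in Ctrl and 5.46, 5.73 and 3.08 TPM in LL-37 libraries. Both fell without LL-37 replicate 3, by log2 changes of -0.58 ± 0.07 and -0.80 ± 0.10 (limma, adjusted p = 0.0425 and 0.0438), and lay lower still in that library. They were among the least stable of the 17 calls and passed under 4 and 3 of 15 alternative settings.

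The list medians of collagens and integrins depended largely on LL-37 replicate 3. Of 14 measured collagens, 4 were lower in all LL-37 libraries (10.3% of all genes), and the list median lay -0.30 from that of all genes with 6 libraries but -0.06 without LL-37 replicate 3. COL5A2, a fibril-forming collagen chain, was at 15.5, 14.1 and 16.2 TPM without and 11.1, 10.4 and 2.15 TPM with LL-37. For 15 integrins the list median was -0.26 from that of all genes with 6 libraries and 0.04 without LL-37 replicate 3. The second sign was not stable. It was negative when Ctrl replicate 1, LL-37 replicate 1 or LL-37 replicate 2 was left out as well. Taken singly, LL-37 replicates 1 and 2 stood at -0.09 and -0.07, below the lowest Ctrl replicate at -0.03. Of the 15, 5 were lower throughout and none higher (10.3% and 2.13% of all genes). Without LL-37 replicate 3, 5 were lower and 4 higher (12.9% and 12.3%). ITGA4, at 12.1, 11.1 and 12.8 TPM in Ctrl and 8.55, 8.58 and 4.98 TPM in LL-37 libraries, was lower throughout. Collagens and integrins have long transcripts, with list medians of 6488 and 5479 bases against 3359 bases over all genes. Among 18 proteases and inhibitors, 6 were lower in all libraries and none higher (10.3% and 2.13% of all genes). Without LL-37 replicate 3 the counts were 7 lower and 2 higher (12.9% and 12.3%). That list's median lay -0.17 from that of all genes with 6 libraries and -0.12 without LL-37 replicate 3. TIMP1, an inhibitor of metalloproteinases, was at 960.4, 997 and 976 TPM without and 787, 799 and 771 TPM with LL-37, with a tight spread in both groups and a log2 change of -0.30 ± 0.05 without LL-37 replicate 3 (limma, adjusted p = 0.0846). MMP1, interstitial collagenase, was at 30.1, 36.5 and 32.5 TPM in Ctrl and 19.1, 23.8 and 33.2 TPM in LL-37 libraries, below the Ctrl range in LL-37 replicates 1 and 2 and within it in replicate 3.

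Genes that mark the invasive, less differentiated state of melanoma did not move as 1 block. Of 22 measured, 11 were lower in all LL-37 libraries and 1, TNFRSF12A, was higher (10.3% and 2.13% of all genes). Without LL-37 replicate 3, 11 were lower and 4 higher (12.9% and 12.3%). The higher ones included AXL, the receptor kinase that defines the state, at 38.2, 34.1 and 40.2 TPM without and 51.2, 45.8 and 19.3 TPM with LL-37, and FOSL1. CCN2, at 8.86, 7.81 and 9.38 TPM in Ctrl and 5.75, 6.49 and 3.71 TPM in LL-37 libraries, and CAV1, the coat protein of caveolae, at 21.4, 21.2 and 24 TPM without and 17, 17 and 13.8 TPM with LL-37, were lower throughout. SERPINE2, the most abundant member, was at 4802, 4401 and 4663 TPM in Ctrl and 4283, 4064 and 2394 TPM in LL-37 libraries. TGFBI and CCN2 are also in the list of transforming growth factor beta targets, in which 6 of 17 measured members were lower in all libraries and none higher (10.3% and 2.13% of all genes), and 6 were lower and 3 higher without LL-37 replicate 3 (12.9% and 12.3%).

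**Figure D4:**
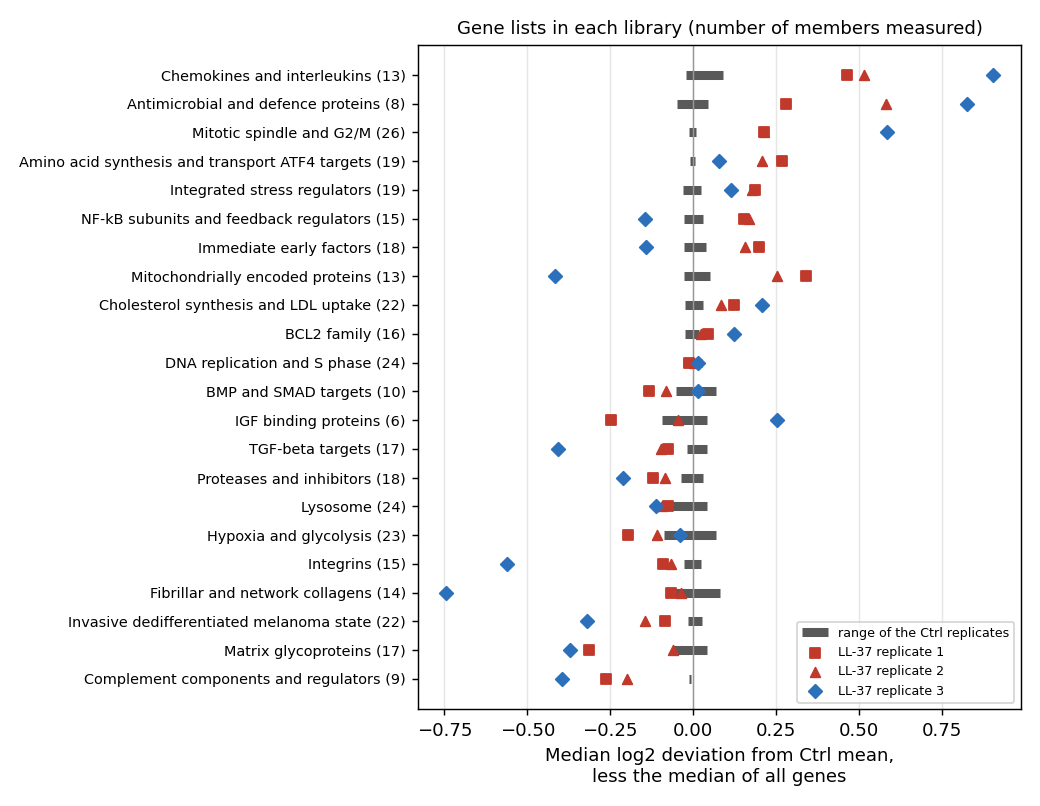
Median log2 deviation of each gene list from the Ctrl mean in each LL-37 library, less the median of all genes in the same library (x axis). Grey bars span the 3 Ctrl replicates and symbols are the LL-37 replicates. Values are not corrected for transcript length, which matters for LL-37 replicate 3. Median lengths were 1705 bases for chemokines, 877 for antimicrobial genes and 5263 for complement genes, against 3359 over all genes. Chemokines, antimicrobial genes, G2/M genes and ATF4 targets lie to the right of the Ctrl range in all 3 LL-37 libraries, complement genes, proteases and the invasive state to the left, and mitochondrially encoded proteins split between replicates 1 and 2 and replicate 3.

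The amino acid programme of ATF4 was higher in LL-37 replicates 1 and 2. ATF4 is the transcription factor whose translation increases when initiation factor eIF2 is phosphorylated, in the integrated stress response, and it drives genes for amino acid synthesis and uptake. ASNS, asparagine synthetase, was at 105, 94.5 and 91.1 TPM in untreated cells and 116, 111 and 127 TPM with LL-37. PSAT1 and PSPH, enzymes of serine synthesis, were at 165, 149 and 148 TPM without and 186, 174 and 187 TPM with LL-37 and at 29.2, 33 and 35.3 TPM in Ctrl and 38.7, 40.9 and 54.3 TPM in LL-37 libraries. CTH, which makes cysteine, was at 14.7, 12.1 and 13.8 TPM without and 17.3, 15.4 and 15.4 TPM with LL-37. These 4 were the members whose groups were apart in all 6 libraries. SLC1A4, a transporter of neutral amino acids, was at 46.5, 41.8 and 47.6 TPM in Ctrl and 69.5, 61 and 26.1 TPM in LL-37 libraries, with the largest log2 change of the list without LL-37 replicate 3, 0.52 ± 0.09 (limma, adjusted p = 0.0911).

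All 19 ATF4 targets of this list were measured. In the 6 libraries 4 were higher throughout (2.13% of all genes) and none lower. With LL-37 replicate 3 left out, 15 of 19 were higher (12.3% of all genes), 14 had an unadjusted p under 0.05 and a higher level (4.92% of all genes), none passed the adjusted threshold, and the list median lay 0.24 above that of all genes. The differences were small, with a median of 0.24 (log2). SLC3A2, the heavy chain of amino acid exchangers and the most abundant member, was at 401, 388 and 416 TPM without and 478, 449 and 281 TPM with LL-37.

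The regulators of the same response were similar. ATF4 was at 645, 644 and 633 TPM in Ctrl and 744, 722 and 764 TPM in LL-37 libraries, and DDIT4, an inhibitor of mTORC1 signalling, at 164, 148 and 157 TPM without and 186, 183 and 192 TPM with LL-37. CHAC1, which degrades glutathione, was at 17.3, 17.3 and 15.6 TPM in Ctrl and 22.3, 21.8 and 19.9 TPM in LL-37 libraries. With ATF3, these were the 4 of 19 members that were higher in every LL-37 library (2.13% of all genes). DDIT3, or CHOP, was at 176, 181 and 199.9 TPM without and 226, 233 and 168 TPM with LL-37 and TRIB3, a pseudokinase that damps ATF4, at 113, 120.3 and 118 TPM in Ctrl and 158, 148 and 109 TPM in LL-37 libraries, higher in replicates 1 and 2 and not in replicate 3. GDF15, a stress hormone that ATF4 and p53 both raise, was the exception at 25.8, 27.9 and 28.4 TPM without and 23.4, 20.7 and 17.6 TPM with LL-37, lower throughout. The 4 kinases of eIF2 (EIF2AK1, EIF2AK2, EIF2AK3 and EIF2AK4) overlapped. Over the 5 other libraries, 10 of 19 were higher and 1 lower (12.3% and 12.9% of all genes). Of the 20 measured aminoacyl-tRNA synthetases, 1 was higher and 2 lower in all libraries (2.13% and 10.3% of all genes), and 6 were higher and 2 lower without LL-37 replicate 3 (12.3% and 12.9%).

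Some of these promoters hold the CARE letters TGATGNAA, which ATF4 binds as a dimer with C/EBP proteins. Windows are shown for 3 members whose groups were apart in all 6 libraries, with the motif in capitals (RefSeq, GRCh38.p14, 5′ to 3′ on the gene's strand; in CHAC1 the motif lies on the other strand, so that its reverse complement is printed).
ASNS: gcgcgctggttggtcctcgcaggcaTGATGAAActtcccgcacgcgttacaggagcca
ATF3: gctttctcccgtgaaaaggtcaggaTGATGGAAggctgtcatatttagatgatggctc
CHAC1: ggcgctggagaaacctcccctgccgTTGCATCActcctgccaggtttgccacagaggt
The windows lie at chr7:97872444-97872501 (ASNS, minus strand), chr1:212565191-212565248 (ATF3, plus strand) and chr15:40953237-40953294 (CHAC1, plus strand). The letters start 68 bases before the start of ASNS, 191 before that of ATF3 and 209 before that of CHAC1. They were found in 5 of 15 amino acid genes and 4 of 17 regulators with a promoter in the table, and in 7 of 16 aminoacyl-tRNA synthetases. Counted in the same way, 2.70% of tested genes with a promoter held them (3.62% of all promoters). PSAT1, TRIB3 and DDIT3 had no such letters in this window.

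**Figure D5:**
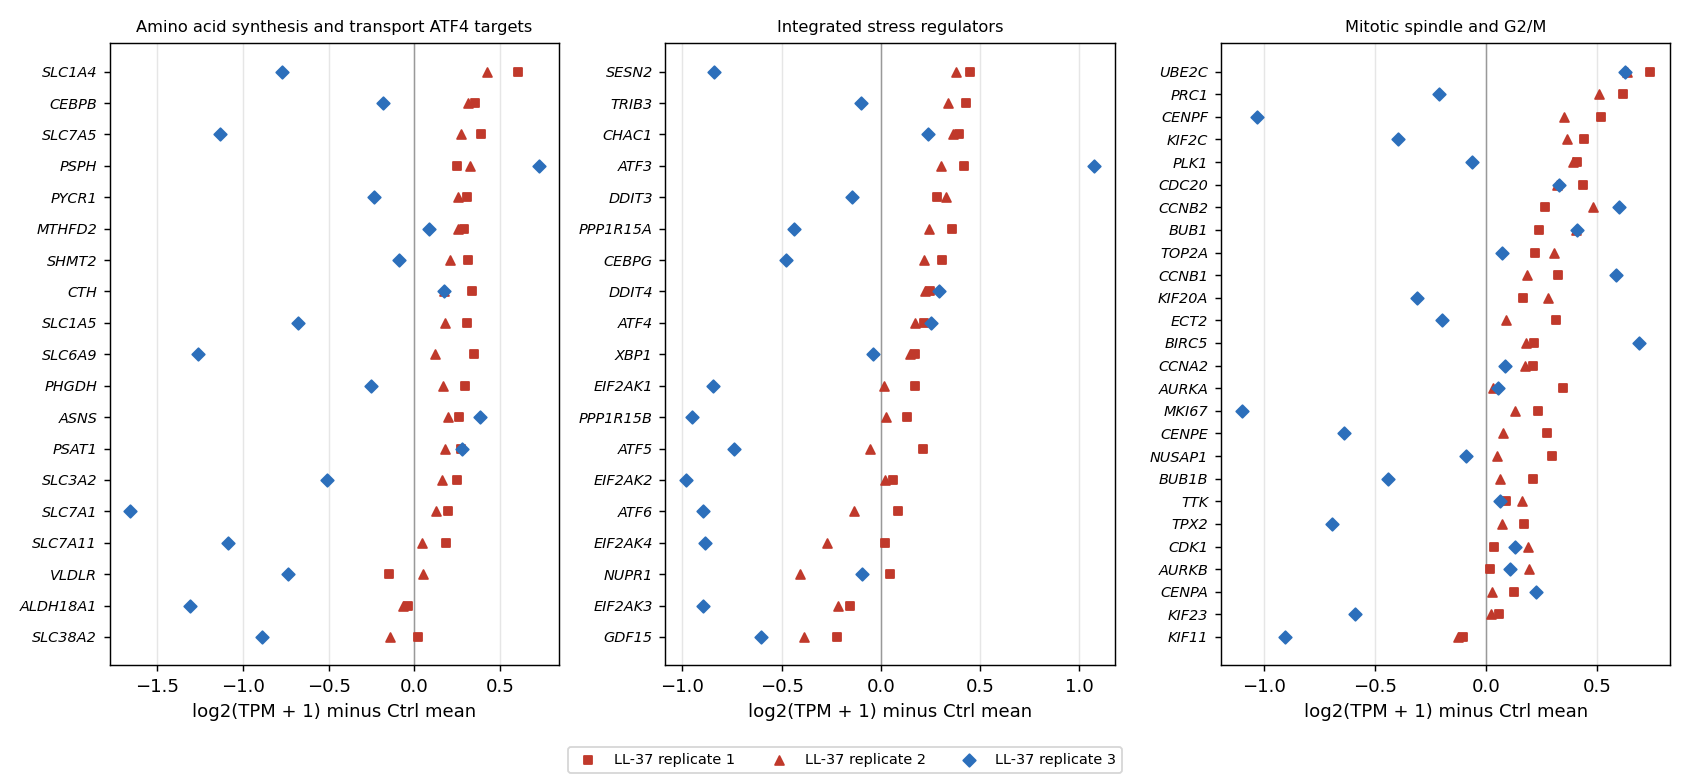
Difference in log2(TPM + 1) between each LL-37 library and the Ctrl mean (x axis) for every measured member of the ATF4 target list (left), the integrated stress regulators (middle) and the spindle and G2/M genes (right). Red symbols are LL-37 replicates 1 and 2 and blue diamonds replicate 3. Replicates 1 and 2 lie above 0 for most members, and replicate 3 scatters from below -1.5 to above 1.

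Lipid genes had a single member that passed. ELOVL6 extends saturated fatty acids from palmitate to stearate (chromosome 4, 110045846 to 110199199). It was at 13.7, 13.1 and 13.8 TPM in untreated cells and at 35.3, 31.9 and 8.64 TPM with LL-37, far above the Ctrl range in replicates 1 and 2 and below it in replicate 3. It rose by 1.25 ± 0.09 (adjusted p = 0.00232) without LL-37 replicate 3, against 0.64 ± 0.50 with it (limma, adjusted p = 0.739). Against genes of like transcript length, replicate 3 stood 0.38 above the Ctrl level. The enzymes that act before and beside it overlapped or differed little. FASN, fatty acid synthase, was at 279.8, 261 and 303 TPM in Ctrl and 343, 301 and 99.5 TPM in LL-37 libraries, and SCD, the desaturase of stearate, at 412, 387 and 453 TPM without and 424, 395 and 143 TPM with LL-37. Of 20 measured genes of fatty acid synthesis, none was higher in all LL-37 libraries (2.13% of all genes). In cholesterol synthesis, 3 of 22 measured genes (EBP, MSMO1 and NSDHL) were higher in all libraries and none lower (2.13% and 10.3% of all genes), and without LL-37 replicate 3 the median of the list lay 0.11 above that of all genes.

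Of 23 measured genes of the hypoxia response and glycolysis, 10 were lower in all LL-37 libraries (10.3% of all genes) and none higher. CA9, carbonic anhydrase 9, a classical target of hypoxia-inducible factor, was at 71.2, 97.4 and 110.5 TPM without and 31.2, 55.8 and 30.3 TPM with LL-37. The groups were apart, but the Ctrl levels themselves ranged widely, and the log2 change of -1.11 ± 0.24 without LL-37 replicate 3 did not pass (limma, adjusted p = 0.168). ALDOC, an aldolase, was at 97.5, 113 and 119 TPM without and 66.8, 78.1 and 59.5 TPM with LL-37, P4HA1, a collagen prolyl hydroxylase, at 45.5, 48 and 48.7 TPM in Ctrl and 34.1, 39.3 and 30.0 TPM in LL-37 libraries, and GAPDH, the most abundant member, at 8075, 8553 and 9019 TPM without and 7575, 7938 and 5939 TPM with LL-37. Without LL-37 replicate 3, 12 were lower and 1 higher (12.9% and 12.3% of all genes). In that fit 11 were lower at an unadjusted p under 0.05 (4.1% of all genes). VEGFA, ADM and SLC2A1, which hypoxia also raises, overlapped with Ctrl in replicates 1 and 2. Within the Ctrl group, GAPDH, ENO1, TPI1, LDHA and CA9 were lowest in replicate 1.

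The largest rise among the 17 genes lay in the mitochondrial genome. MT-ND6, a subunit of respiratory complex I and the only protein encoded on the light strand of mitochondrial DNA, was at 30.9, 28.1 and 21.6 TPM in untreated cells and at 144, 138 and 55.7 TPM with LL-37. All LL-37 levels lay above the Ctrl range, replicate 3 included, although mitochondrially encoded RNA as a whole was lower there. MT-ND6 rose by 2.36 ± 0.13 (adjusted p = 0.000793) without LL-37 replicate 3, and the estimate with it was 1.92 ± 0.38 (limma, adjusted p = 0.739). Within LL-37 replicate 3, MT-ND6 stood 1.04 above the Ctrl mean while its heavy-strand neighbours MT-ND5 and MT-CYB stood at -1.37 and -1.18. MT-ND5 was at 559, 463 and 546 TPM in Ctrl and 748, 683 and 201 TPM in LL-37 libraries and MT-CYB at 1435, 1280.1 and 1408 TPM without and 1626, 1456 and 605 TPM with LL-37. MT-CO1, the subunit with the highest level, was at 6039, 5498 and 5891 TPM in Ctrl and 6579, 6336 and 2888 TPM in LL-37 libraries. Of the 13 mitochondrially encoded proteins, MT-ND6 was higher and MT-CO3 lower in all libraries (2.13% and 10.3% of all genes). Without LL-37 replicate 3, 11 were higher and MT-CO3 lower (12.3% and 12.9%). The list median then lay 0.28 above that of all genes. With all libraries it lay 0.12 above, and it was below it after quantile normalization, after removal of the length trend, with no filter on low values, and without LL-37 replicate 1 or replicate 2. Whether reads were assigned by strand is not given in the sources used here. Reads of MT-ND6 and of RNA from the opposite strand at the same place therefore cannot be told apart. The 8 light-strand transfer RNAs of the list were listed at 0 TPM in all libraries. Of the 16 heavy-strand transfer and ribosomal RNAs listed, only 2 passed the filter. The zeros are therefore not particular to the light strand, and nothing is drawn from them. How poly(A) selection acted on MT-ND6 and other mitochondrial RNA was not tested. MT-ND6 lies at bases 14149 to 14673 of the mitochondrial genome.

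Genes that act late in the cell cycle were higher in part. Of 26 spindle and G2/M genes, all measured, 8 were higher in all LL-37 libraries (2.13% of all genes) and none lower. With LL-37 replicate 3 left out, 15 were higher and none lower (12.3% and 12.9% of all genes). In that fit 9 were higher at an unadjusted p under 0.05 (4.92% of all genes), and none passed. UBE2C, the ubiquitin-conjugating enzyme of the anaphase-promoting complex, was at 13.4, 17.3 and 13.5 TPM without and 25.1, 23.3 and 23.1 TPM with LL-37, with a log2 change of 0.69 ± 0.12 without LL-37 replicate 3 (limma, adjusted p = 0.0911). CCNB1 and CCNB2, the mitotic cyclins, were at 15.5, 19.4 and 17.7 TPM in Ctrl and 22.2, 19.99 and 26.8 TPM in LL-37 libraries and at 9.01, 9.58 and 11.3 TPM without and 12.1, 14.2 and 15.5 TPM with LL-37. CDC20, which activates the anaphase-promoting complex, was at 14.6, 15.4 and 15.6 TPM in Ctrl and 20.9, 19.2 and 19.4 TPM in LL-37 libraries. Of 24 genes of DNA replication and S phase, none was higher in all libraries and 1, SLBP, was lower (2.13% and 10.3% of all genes). PCNA, the replication clamp, was at 64.2, 64.4 and 64.7 TPM without and 56.9, 59.4 and 67 TPM with LL-37, and the median of that list lay 0.01 from that of all genes with 6 libraries and -0.01 without LL-37 replicate 3.

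In the BCL2 family, 3 of 16 measured members were higher and 2 lower in all libraries (2.13% and 10.3% of all genes). BIK, 1 of the 3, reached 1 TPM in LL-37 libraries only, so that it could pass the filter only by being higher there. BID, which links death receptors to mitochondria, was at 19.4, 21.4 and 19.2 TPM in Ctrl and 24.9, 23.8 and 30.7 TPM in LL-37 libraries. BIK, a BH3-only activator of death, was at 0.34, 0.65 and 0.93 TPM without and 1.64, 1.19 and 1.11 TPM with LL-37, near the limit of measurement. BMF was at 9.76, 11.7 and 15.1 TPM in Ctrl and 7.56, 8.8 and 4.06 TPM in LL-37 libraries. BAX and MCL1, which had the highest levels, were at 164, 169 and 163 TPM without and 174, 163 and 149 TPM with LL-37 and at 165, 146 and 158 TPM in Ctrl and 192, 171 and 81.7 TPM in LL-37 libraries. None passed the threshold. Of 22 targets of p53, 6 were lower in all libraries and none higher (10.3% and 2.13% of all genes), and 6 were lower and 3 higher without LL-37 replicate 3 (12.9% and 12.3%). CDKN1A, or p21, was at 89.5, 89.9 and 96.2 TPM without and 80.8, 87.5 and 51.8 TPM with LL-37.

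The remaining 2 genes past the threshold without LL-37 replicate 3 do not code for a known protein. ENSG00000276984, a long intergenic RNA (chromosome 16, 424243 to 424543), was listed at 0 TPM in all Ctrl libraries and at 1.54, 1.7 and 1.51 TPM with LL-37. It reached 1 TPM in LL-37 libraries only and so could pass the filter only by being higher there, and nothing is drawn from its p. The other was a processed pseudogene of a ribosomal protein, at 18.3, 9.88 and 13.4 TPM in the Ctrl libraries, listed at 0 in LL-37 replicates 1 and 2, and at 28.9 TPM in replicate 3. Its reads may belong to near-identical copies, so its level is uncertain.

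The 17 calls were not equally firm. Over 15 alternative settings, ELOVL6 passed under 13 and A2M under 12, NR4A1 under 11, IGFBP3 under 10, IL24, ID3 and FN1 under 9 each, CFI under 8, C3 and SPP1 under 6 each, and ID1 and SPARC under 5 each. MT-ND6 passed under 13, and 1 of the remaining settings removes mitochondrial genes. The remaining calls, beside STC1 and VAT1L above, were the long intergenic RNA under 5 and the pseudogene under 13.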

How the data were processed

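RNA was measured in 6 libraries of A375 cells. Gene levels were deposited by the authors as TPM, which sum to 1000000 in each library. The submitters' processing notes name the builds GRCh38 and GRCm39, and which aligner and quantifier were used is not given in the sources used here. Depth is unknown. Of 63140 human gene IDs, 62541 matched a symbol. Lengths, gene types and positions came from GENCODE 29 (96.4% of tested genes had a length).

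From the TPM, log2(TPM + 1) was fitted with limma 3.58.1 (R 4.3.3; intensity trend, two-sided, Benjamini-Hochberg) over 14399 genes that reached 1 TPM in 3 or more of the 6 libraries, once over all libraries and once leaving out LL-37 replicate 3. The code was tested on simulated data. Tables used Python 3.11.15, pandas 2.3.3 and numpy 2.4.6. Each p-value sets the difference between the groups against the spread between these cultures, which limma moderates with that of other genes. Pseudocounts, filters, scalings, a length trend, a block and left-out libraries were tried as alternatives.

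The members and gene lists were chosen with earlier results of these data known. Of 62 lists, 61 had measured members, and not every list is described. Named genes were every gene past the threshold, the 15 largest differences each way among protein-coding genes whose groups were apart at a mean of at least 5 TPM, and for each list up to 4 members whose groups were apart and its 2 most abundant. Other members, such as NFKB2, LIF, CCL2, SLC1A4, TRIB3, FOSL1 and MMP1, were named after their values were seen. Promoter windows came from RefSeq, GRCh38.p14.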

Additional observations from a re-analysis of the deposited data

How the results depend on the processing

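With all 6 libraries, no gene passed under any alternative except leaving out LL-37 replicate 3. The count over single left-out libraries ran from 0 to 17. The number of genes tested was 14399 in the main fit, 10143 with a filter of 5 TPM and 28252 with no filter. Without LL-37 replicate 3, the 17 genes became 6 with no filter on low values (1 of the 17 among them), 65 with a filter of 5 TPM (16 shared), 9 with median-of-ratios scaling and 9 with quantile normalization (9 shared in each), and 5 without the intensity trend (4 shared). Leaving out 1 more library gave 9 to 42 genes, the lowest without Ctrl replicate 3, the highest without Ctrl replicate 1, and 11 without Ctrl replicate 2. The replicate block gave 2 genes, 1 of them shared, and 0 with all libraries. The samples share only a number: deviations of same-numbered samples correlated at r = 0.09, -0.20 and -0.17 across genes, and not every sample correlated best with its own number. Pseudocounts of 0.1 and 5 gave 20 and 16 genes, removal of mitochondrial genes 14, and removal of the length trend 13. None of the 17 genes changed direction under these alternatives. The medians of the NF-kB, immediate early and cholesterol lists relative to all genes, with all libraries, changed sign when low values were not filtered, and those of integrins and mitochondrially encoded proteins changed as given above. The cause of each of these differences was not tested. With 2 or 3 libraries a group and unknown depth, low genes such as CAMP or BIK are limited by precision, and a gene that did not pass is not shown to be unaltered.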

Other observations

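Lysosomal genes, which code for the acid hydrolases and membrane proteins of that organelle, were lower in part. Of 24 measured, 7 were lower in all LL-37 libraries and none higher (10.3% and 2.13% of all genes), and 10 were lower without LL-37 replicate 3 (12.9%). CTSZ, a cathepsin, was at 345, 354 and 376 TPM in untreated cells and 279.9, 291 and 147 TPM with LL-37, and PSAP, the precursor of the saposins, was at 873, 923 and 986 TPM without and 799, 819.7 and 544 TPM with LL-37. Neither passed the threshold. CTSS, a cathepsin of antigen-presenting cells, went the other way at 3.25, 2.45 and 3.18 TPM without and 6.61, 6.48 and 4.73 TPM with LL-37 (limma, adjusted p = 0.0749 without LL-37 replicate 3). Among membrane repair genes, ANXA1, an annexin that binds lipids on calcium entry, was at 343, 327 and 327 TPM without and 274, 277 and 272 TPM with LL-37, and CHMP2A, a subunit of the ESCRT-III complex that seals membranes, was at 278, 278 and 276 TPM without and 235, 250.2 and 230.3 TPM with LL-37. Of 25 measured, 3 were lower in all libraries and none higher (10.3% and 2.13% of all genes). Without LL-37 replicate 3, 7 were lower and 1 higher (12.9% and 12.3%). In the circadian clock list, DBP, PER1, CRY1 and BHLHE41 were lower in all 3 LL-37 libraries, 4 of 11 measured (10.3% of all genes), with DBP at 21.5, 23.7 and 22.2 TPM without and 13.8, 19.7 and 20.9 TPM with LL-37.

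Other single genes with large differences between the groups did not pass the threshold. TAFA2, a secreted chemokine-like protein, was at 10.7, 11.2 and 8.88 TPM without and 16.2, 15.6 and 21.7 TPM with LL-37 and TAGLN3, a neuronal relative of transgelin, at 10.3, 12.6 and 11.1 TPM without and 16.7, 16.1 and 20.7 TPM with LL-37. CLU, the chaperone clusterin, was at 13.8, 10.5 and 15.1 TPM without and 4.77, 7.34 and 6.48 TPM with LL-37, and PPP1R1B, a phosphatase inhibitor, at 4.83, 8.26 and 6.27 TPM without and 2.74, 2.69 and 2.65 TPM with LL-37. SORCS1, a sorting receptor, was at 7.29, 8.47 and 9.24 TPM without and 4.81, 4.68 and 0.98 TPM with LL-37. For ROBO1, a guidance receptor at 30.7, 27 and 30.5 TPM without and 22.5, 25.5 and 5.05 TPM with LL-37, and SLC35E2A at 10.6, 13.7 and 13.8 TPM without and 10.2, 10.0 and 1.43 TPM with LL-37, most of the difference lay in LL-37 replicate 3.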
